A study of Danio rerio with 6 samples.

Results

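Mitochondrial ribosomal protein genes were identified in the table as the rows whose symbol begins with mrpl or mrps followed by a digit, and 72 of 31624 genes met this definition, 44 with mrpl and 28 with mrps symbols. The RNA came from zebrafish (Danio rerio), taken as whole embryos 72 hours after fertilization, and was sequenced from 3 wild type and 3 rhpn2 mutant samples. Samples carry the letters a, b and c within each genotype. The labels describe the mutation as a knockout of rhpn2, the gene for rhophilin-2, and give no strain, allele, parents or number of embryos per sample. Column names of the mutants carry a further mark after rhpn2, whose meaning is not given. No treatment other than the mutation separates the groups in the labels. The comparison asks how loss of rhpn2 changes gene expression in the embryo.

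Mitochondria hold their own ribosome, which translates the few proteins encoded by mitochondrial DNA, core subunits of the respiratory chain and the ATP synthase. Its RNAs are encoded in the mitochondrion, whereas its proteins are encoded in the nucleus, made in the cytosol and imported. Part of these proteins have counterparts in the bacterial ribosome and the others are found only in mitochondria. Loss of single members causes mitochondrial disease in humans, often of heart, brain or kidney. In human mitochondria the products of MRPS18A and MRPS30 sit in the large subunit despite their names, and that of MRPS36 is a component of the oxoglutarate dehydrogenase complex. By these assignments the members comprised 46 genes of the large subunit, 25 of the small subunit and mrps36.

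How far the deposited annotation fitted the name of the set depended on the term. A Gene Ontology cellular component with the word ribosome or ribosomal was attached to 64 of the 72 genes and a mitochondrial component to 61. The narrower term of a mitochondrial ribosome or ribosomal subunit was attached to 39. The oxoglutarate dehydrogenase complex was among the terms of mrps36. The members lay on 22 chromosomes, with at most 7 on a single chromosome, chromosome 19. Of the 5 members on chromosome 7, which carries rhpn2, the nearest was mrpl52 at a distance of 14.2 Mb. Exonic sizes were short, with a median of 1073 bases (range 396 to 6188) where the median of all genes tested was 2383 bases.

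Some members were close neighbours of each other. On chromosome 7, mrps11 (14266537 to 14290399, minus strand) and mrpl46 (14290620 to 14298501, plus strand) stood head to head with 220 bases between them. On chromosome 1, mrpl16 and mrpl39 followed each other on the plus strand with 1871 bases between them. On chromosome 19, mrpl24 and mrpl9 lay 12169 bases apart on opposite strands. Coordinates are the table's own, and the sources used here name no genome build for them.

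Libraries held 14918069 to 17056923 counts, and each member had 91 to 853 counts in every sample, so that all 72 passed the filter on low counts. Expression of rhpn2 averaged 49.96 ± 1.76 CPM (counts scaled to library size, with TMM factors between libraries) in wild type against 11.5 ± 0.805 CPM in mutants (mean ± SD, n = 3 each), which follows the labels. The quasi-likelihood test of edgeR, with an adjusted p below 0.05 as threshold, called 33.2% of 20032 genes, with 16.5% of the genes tested higher and 16.7% lower in mutants. The labels do not say that samples of a group came from separate clutches, so p-values rest on the spread among these samples alone, part of which may be technical.

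Wild type a stood apart for these genes. Its TMM-scaled level was the highest of the 3 wild type samples for 70 of the 72 members, against 40.4% of all genes tested. The members together took 0.197% of the counts in wild type a and 0.173% in each of the other wild type libraries. In the mutants the share was 0.182%, 0.186% and 0.184%. The median member was 0.20 above its wild type mean on the log2 scale in wild type a, and 0.07 and 0.11 below it in wild type b and c, as the plot of members by sample shows. Wild type a was also the highest wild type sample for 75 of 77 cytosolic ribosomal protein genes and 37 of 37 nuclear genes of respiratory complex I. Scaling bears on this, since in deposited FPKM (counts per exonic length, scaled by library totals) wild type a was highest for 60 of the 72 members and 29.2% of all genes tested. The counts and median of the members, and several other results, are also given without wild type a.

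**Figure D1:**
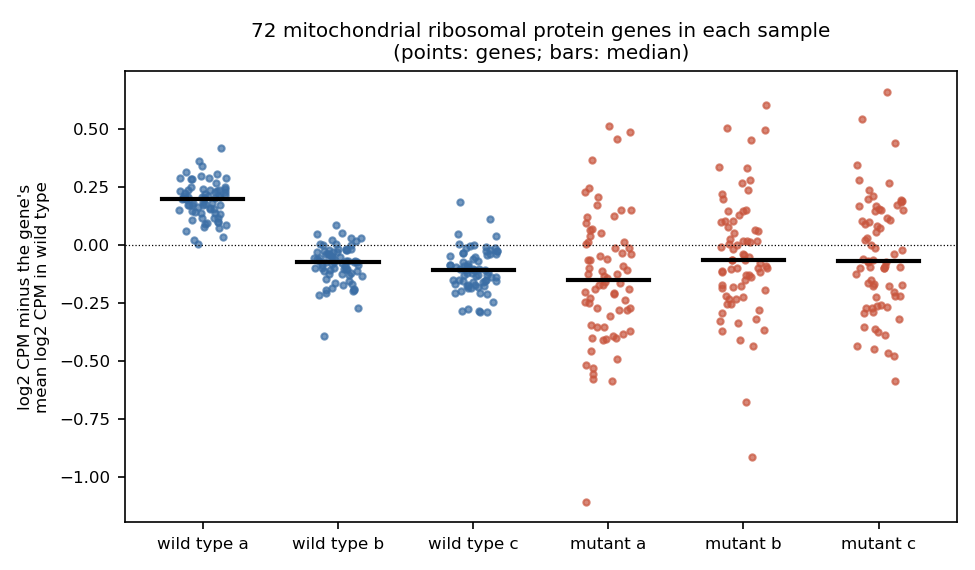
Each point is 1 of the 72 mitochondrial ribosomal protein genes in 1 sample, given as its log2 CPM (TMM-scaled) minus its mean log2 CPM in the 3 wild type samples, and bars are medians over genes. Nearly all points of wild type a sit above 0 with a median of 0.20, while the medians of the other samples lie below 0. Centring was on wild type, so the points of the mutants also hold each gene's change between the groups. Their wider spread is therefore no measure of the spread between replicates.

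In wild type embryos the members spanned a 10.3-fold range of deposited FPKM, from 4.99 to 51.2 with a median of 22.8 and quartiles of 17.6 and 27.6. The median member lay above 87.6% of the genes tested, whose median was 5.0 FPKM. The most abundant was mrpl30, a large-subunit protein with a bacterial counterpart, with 57.94, 48.17 and 47.42 FPKM in wild type a, b and c. It was followed by mrps36 (49.1 ± 6.91 FPKM, SD, n = 3), the oxoglutarate dehydrogenase component, and by mrps34 (45.7 ± 4.7), a mitochondria-specific protein of the small subunit. The first 2 differed by less than their SDs.

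At the other end stood mrps25, mrps33 and mrpl9. The lowest, mrps25, had 5.61, 4.47 and 4.89 FPKM in wild type and 5.76, 5.73 and 5.2 in mutants, and the groups overlapped. It has the longest exonic size of the set, and its span overlaps cacna1db on its own strand and rbsn on the other, so reads may be shared. Expression of mrps33, a small-subunit gene specific to mitochondria, was 6.15 ± 0.69 FPKM in wild type against 6.11 ± 0.395 for the mutants (SD, n = 3 each). For mrpl9, whose bacterial counterpart lies at the base of the stalk that guides used tRNAs out, wild type had 7.42 ± 0.449 FPKM.

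The order of abundance was largely kept in mutants. Mutant members had a median of 22.6 FPKM and a range of 5.56 to 47.2. Of the 10 most abundant members in wild type, 8 were among the 10 most abundant in mutants, and 8 of the 10 least abundant were shared as well. The median SD between replicates was 9.13% of the mean in wild type and 6.34% in mutants.

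**Figure D2:**
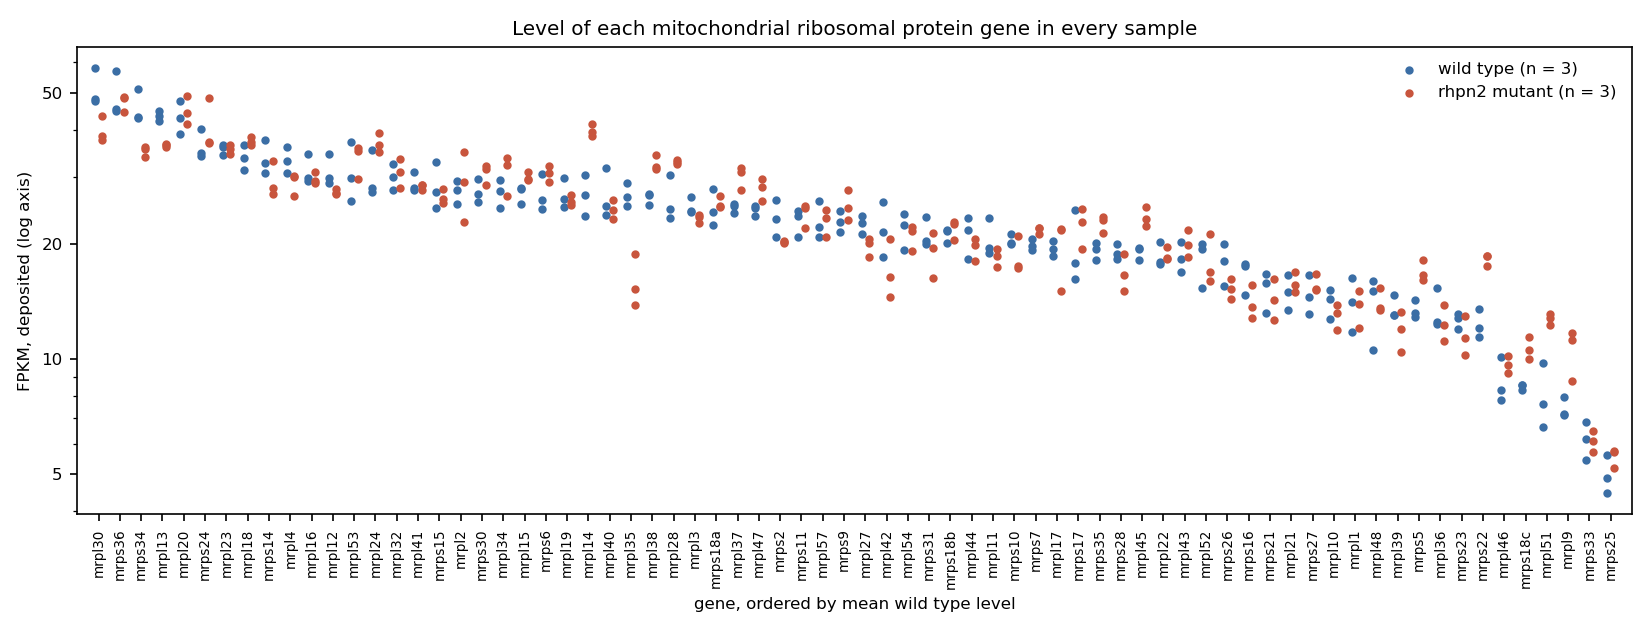
Deposited FPKM (log axis) of the 72 genes in every sample, 3 wild type and 3 rhpn2 mutant points per gene, ordered by mean wild type level. Levels fall from 51.2 FPKM for mrpl30 to 4.99 for mrps25, and for most genes the groups lie at a similar height. Of the genes called by edgeR, mrpl35, mrps34, mrpl30 and mrpl13 lie lower and mrps22, mrpl14, mrpl51 and mrpl9 higher in mutants.

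Few members differed between the groups, and those that did moved in both directions. Of 72 members tested, 4 rose and 4 fell (11.1% in all) at an adjusted p below 0.05, where 33.2% of all genes tested changed. The median log2 change was -0.10 with quartiles of -0.24 and 0.05, beside a median of 0.006 and quartiles of -0.29 and 0.30 over all genes tested. A single member changed by at least 1.5-fold in the fit, mrpl35, and none by 2-fold. At an unadjusted p below 0.05 there were 21 of the 72 members, beside 8786 of all 20032 genes tested. In bulk embryos, fewer cells of a type and less RNA per cell cannot be told apart.

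The set had measurements somewhat more precise than those of other genes, with a median SE of 0.12 on the log2 scale for members and 0.15 for all genes tested. The shares of intervals below therefore reflect the width of the intervals as well as the size of the changes. The 95% interval of the change, taken per gene, lay within 1.5-fold either way for 61 of 72 members (84.7%) and for 42.5% of all genes tested. It lay within 2-fold for each member except mrpl35 (98.6%), and for 74.7% of all genes tested. Among the 64 members that did not pass, 60 had an interval inside 1.5-fold, and mrps26, mrps16, mrpl42 and mrps14 reached beyond it on the lower side.

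Scaling and wild type a moved the centre of the set. With library totals in place of TMM factors the median of all genes tested rose to 0.113 and that of the members to 0.009, with 9 members higher and 3 lower (34% of all genes were called, 22.1% higher and 11.9% lower). The 9 were the 4 below plus mrpl38, mrpl45, mrpl28, mrps5 and mrpl37, and mrpl13 no longer passed. Without wild type a the TMM-scaled median of the members was -0.005, with 6 higher and 4 lower, the additions being mrpl24 and mrpl28. In that fit 33.1% of all genes tested were called. The sign of the set's median thus depended on the scaling, and its size on wild type a.

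**Figure D3:**
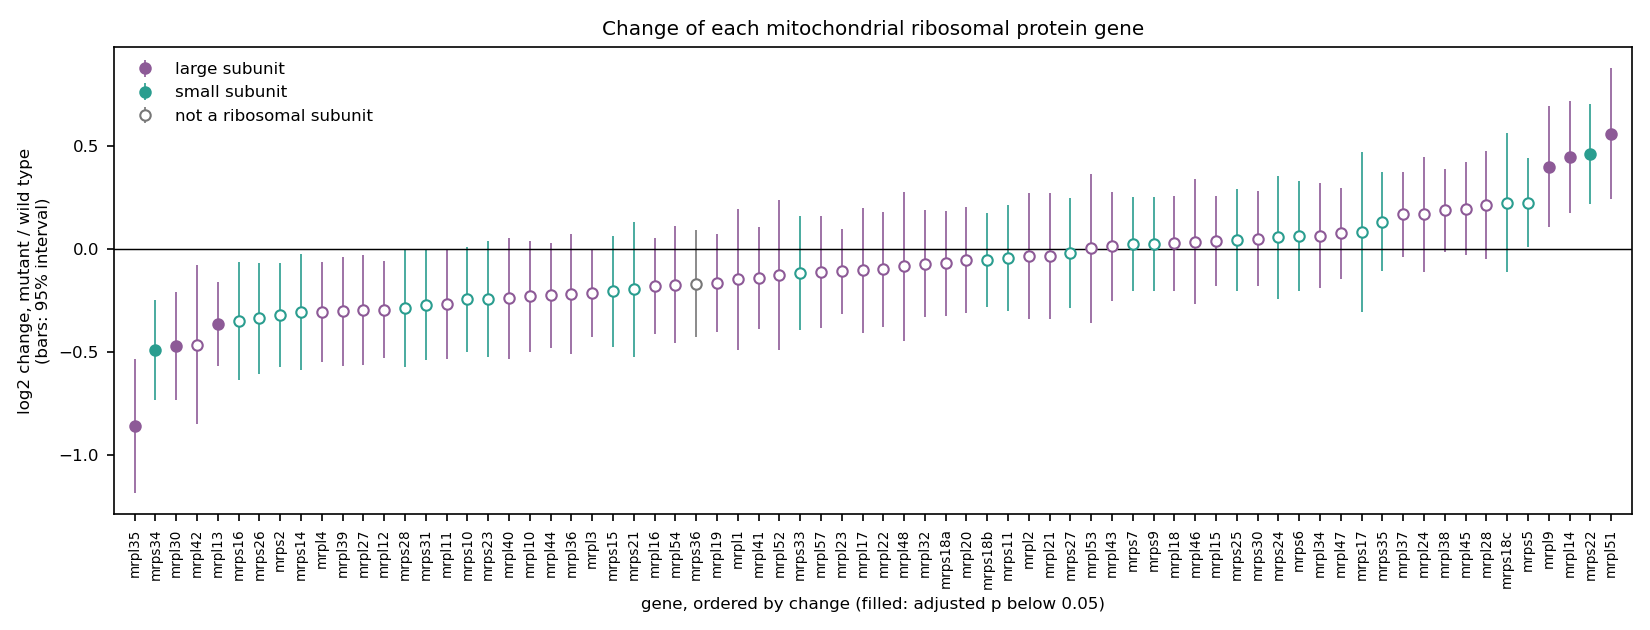
Log2 change of mutant against wild type for each of the 72 genes with its 95% interval (TMM-scaled edgeR fit, 3 samples a group), ordered by size and coloured by ribosomal subunit, with filled points for an adjusted p below 0.05. The intervals of most genes span 0, and mrpl35 at -0.86 and mrpl51 at 0.56 mark the ends.

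The largest fall was that of mrpl35 (ENSDARG00000070589, chromosome 17, 43522338 to 43527004, minus strand), a large-subunit protein with a bacterial counterpart. The wild type samples a to c had 21.6, 17.8 and 18.4 CPM (TMM-scaled), and the mutants 8.91, 10.2 and 12.8 CPM. Each mutant value lay below each wild type value, and mutant c was the nearest to wild type. The fall was 1.82-fold (log2 change -0.86, SE 0.15; adjusted p 0.000919, quasi-likelihood test of edgeR). It passed in each of the 13 alternative settings as well.

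The small-subunit gene mrps34 (chromosome 3, 15853322 to 15861168, minus strand), mutated in a form of Leigh syndrome in humans, fell as well. Its level was 56.5, 44.97 and 44.1 CPM in the wild type samples a to c and 32.3, 35.6 and 35.7 CPM in the mutants. Wild type a was the highest sample, and the groups did not overlap with or without it. The log2 change was -0.49 with an SE of 0.11 (adjusted p of edgeR 0.00526), and -0.37 without wild type a.

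The most abundant member in wild type, mrpl30 (chromosome 9, 22013894 to 22015044, minus strand), had 51.2, 40.3 and 38.8 CPM in wild type and 28.7, 34.4 and 30.9 CPM in mutants. The groups were apart, with mutant b the closest to wild type, and the log2 change was -0.47 with an SE of 0.12 (adjusted p of edgeR 0.0101; -0.34 without wild type a). For mrpl13 (chromosome 16, 15162393 to 15207393, minus strand), a large-subunit protein shared with bacteria, wild type samples had 31.8, 30.9 and 31.3 CPM and mutants 23.7, 24.2 and 25.1. Replicates of this gene lay close together and wild type a did not stand out, so that a 1.29-fold fall had an adjusted p of 0.0107 by edgeR (0.0535 with library totals). None of these 4 genes overlaps another gene in the table.

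The largest rise was that of mrpl51 (ENSDARG00000041340, chromosome 16, 4711692 to 4717682, minus strand), a mitochondria-specific protein of the large subunit. Wild type had 21.9, 14.1 and 15.96 CPM and mutants 23.9, 25.8 and 26.9. The groups were apart, but wild type a lay close to mutant a. The log2 change was 0.56 with an SE of 0.15 (adjusted p of edgeR 0.0114) and 0.76 without wild type a. The span of mrpl51 overlaps cyp4t8 on the same strand, so reads may be shared, which was not tested. Expression of cyp4t8 fell by 1.75 on the log2 scale (adjusted p of edgeR 0.000213) from 6.63 to 1.96 CPM, the opposite direction.

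The small-subunit gene mrps22 (chromosome 15, 6944386 to 6969449, minus strand), specific to mitochondria and mutated in a human mitochondrial disease of heart and kidney, rose from 22.5, 17.97 and 18.6 CPM in wild type to 26.8, 27.8 and 26.6 in mutants. The mutant values lay close together, above wild type a. The log2 change was 0.46 with an SE of 0.11 (adjusted p of edgeR 0.00777). Its span overlaps ech1 on the same strand, whose log2 change was 0.01 (adjusted p of edgeR 0.958), so reads may be shared.

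The remaining rises depended on the samples included. The gene mrpl14 (chromosome 13, 42550142 to 42552981, plus strand) encodes a large-subunit protein at the face towards the small subunit and had 20.6, 15.2 and 16.95 CPM in wild type against 22.5, 23.9 and 25.4 in mutants. The groups were apart, and its log2 change was 0.44 with an SE of 0.13 (adjusted p of edgeR 0.0167; 0.57 on the log2 scale without wild type a, and adjusted p of 0.0502 to 0.0699 without b or c of either genotype). For mrpl9 (chromosome 19, 7599379 to 7606663, minus strand), wild type had 14.99, 12.7 and 12.6 CPM and mutants 19.1, 18.9 and 15.03, so that mutant c barely cleared wild type a. Its log2 change was 0.40 with an SE of 0.14 (adjusted p of edgeR 0.038; 0.107 to 0.132 when wild type b, wild type c, mutant a or mutant b was left out, and 0.0577 with DESeq2). Its neighbour mrpl24 had a log2 change of 0.17 (adjusted p of edgeR 0.338).

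**Figure D4:**
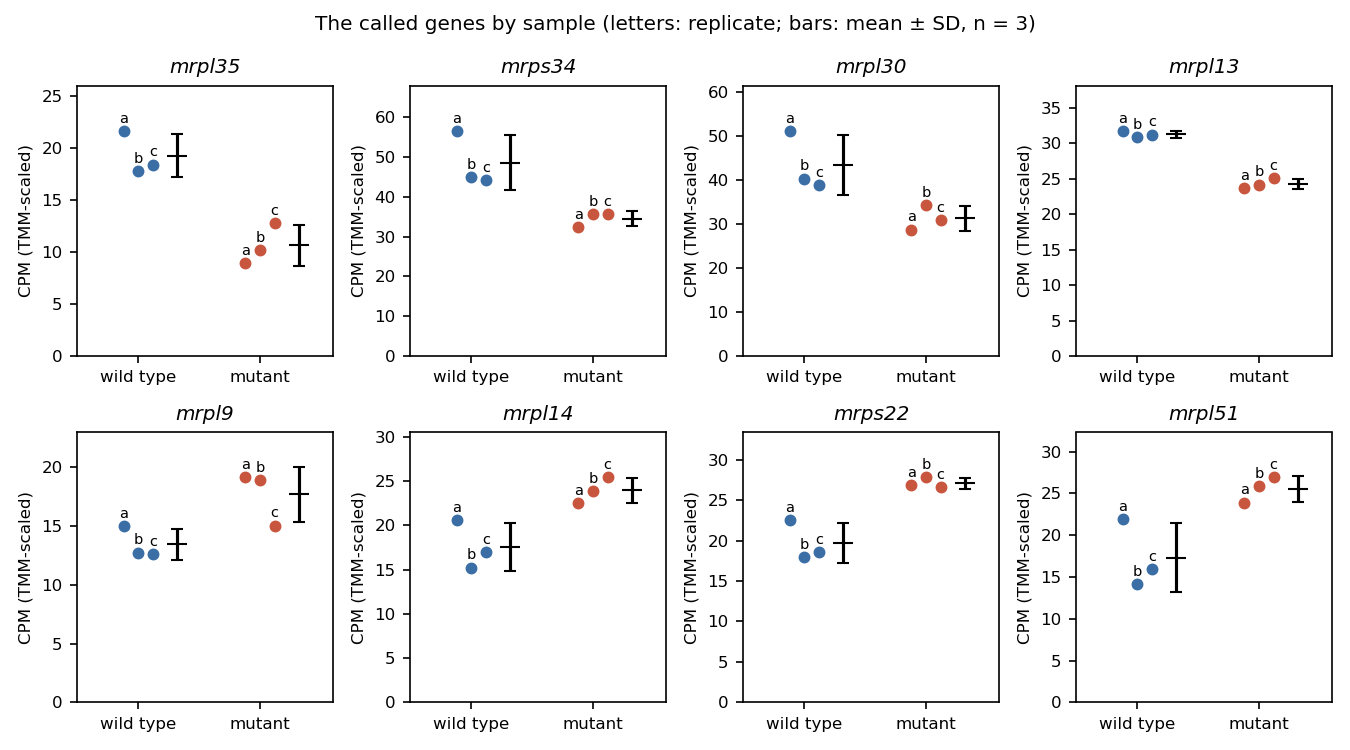
TMM-scaled CPM of the 8 members with an adjusted p below 0.05 in each sample, with letters for the replicate and the mean ± SD (n = 3) beside each group. In the upper row mutants lie below wild type, from 19.3 to 10.6 CPM on average for mrpl35, and in the lower row they lie above it, from 17.3 to 25.5 CPM for mrpl51.

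A further 5 members had an adjusted p between the threshold and 0.06, and their fitted changes were negative. They were singled out after their values were seen. They were mrpl4 (log2 change -0.31), mrps2 (-0.32), mrps26 (-0.34), mrps16 (-0.35) and mrpl12 (-0.30), with adjusted p of edgeR of 0.0506, 0.0515, 0.0516, 0.0576 and 0.0528. The product of mrpl12 forms the stalk that recruits translation factors, and that of mrpl11 lies at its base. For mrpl11 the log2 change was -0.27 (adjusted p of edgeR 0.108), and for mrpl10, which anchors the stalk, it was -0.23 (0.173). Without wild type a none of the 5 passed, while without wild type c mrpl4, mrps2 and mrpl12 did, and without wild type b mrps26 and mrps16 did. With every sample kept, mrpl4 also passed under median-of-ratios scaling (adjusted p of edgeR 0.0492).

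The groups did not overlap for 24 of the 72 members (33.3%), 9 with mutants above and 15 with mutants below, beside 47.8% of all genes tested, 24.2% above and 23.7% below. Of the 24, 16 missed the threshold of the test. Examples with mutants above were mrpl45, which holds the ribosome to the inner membrane at the exit of the nascent chain (log2 change 0.20, adjusted p of edgeR 0.169), mrpl38 (0.19, 0.14) and mrpl37 (0.17, 0.193). Examples with mutants below were mrpl39 (-0.30, 0.0737), mrpl27 (-0.30, 0.0818) and mrps28 (-0.29, 0.108).

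Both subunits gave similar pictures. In the large subunit 3 of 46 genes rose and 3 fell (13% called), with a median log2 change of -0.10. In the small subunit 1 of 25 rose and 1 fell (8% called), with a median of -0.05. Of all genes tested 33.2% were called. With library totals the medians were 0.01 and 0.06. There the large subunit had 7 rises and 2 falls and the small subunit 2 and 1 (34% of all genes called). Without wild type a the medians were 0.002 and -0.01. The large subunit then had 5 rises and 3 falls and the small subunit 1 of each (33.1% of all genes called). The summed CPM of the large subunit was 2.05, 2.03 and 2.04 times that of the small subunit in wild type samples a to c, and 2.06, 2.05 and 2.09 times in the mutants. Wild type a, where the sums of both subunits were highest, did not stand out in this ratio. Among genes with a bacterial counterpart 2 of 43 rose and 3 fell (median -0.10), and among the mitochondria-specific ones 2 of 28 rose and 1 fell (median -0.08).

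The lettered copies showed small fitted changes. In humans the products of the 3 related MRPS18 genes hold different places, that of MRPS18C in the position of the bacterial protein. Expression of mrps18a was 24.9 ± 2.76 FPKM in wild type and 25.7 ± 0.916 in mutants, that of mrps18b 21.2 ± 0.936 and 22.02 ± 1.32, and that of mrps18c 8.48 ± 0.147 and 10.7 ± 0.728 (SD, n = 3 each). The log2 changes on the TMM scale were -0.07, -0.05 and 0.22, with adjusted p of edgeR of 0.686, 0.724 and 0.29. The first 2 turned positive with library totals, at 0.04 and 0.06. The spans of mrps18a and mrps18c overlap apex1 and fam175a.

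Outside the definition stood subunits with other names or spellings. MRPS12, the gene of the decoding-centre protein, and MRPL49 are written in capitals in the table, and their log2 changes were 0.004 and 0.01 (adjusted p of edgeR 0.983 and 0.972). Of 6 further subunits with names of another kind, dap3, the GTP-binding protein of the small subunit, fell by 0.29 on the log2 scale (adjusted p of edgeR 0.0398). Its call was lost without any single sample other than wild type c (0.0549 to 0.128), with library totals (0.148), with DESeq2 (0.0625) and with limma on FPKM (0.109 and 0.11). The other 5, ptcd3, chchd1, aurkaip1, gadd45gip1 and ict1, did not pass.

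Genes of the surrounding pathway were taken from lists chosen for their role, and their counts stand beside the 33.2% of all genes tested that were called, 16.5% higher and 16.7% lower. No difference between a list and other genes was tested. Of 15 genes for mitochondrial translation factors 4 rose and none fell (26.7% called). Their median log2 change was 0.12, or 0.185 without wild type a and 0.228 with library totals, where 5 rose. The gene taco1, a translational activator of the mitochondrial cytochrome c oxidase subunit, rose from 4.57, 5.1 and 3.17 CPM in wild type to 15.3, 14.3 and 13.8 in mutants. The groups lay far apart, and the rise was 3.39-fold (log2 change 1.76, SE 0.18, adjusted p of edgeR 1.69e-05). The peptide deformylase gene pdf rose 1.99-fold and guf1, a GTPase that binds the ribosome, rose 1.5-fold (adjusted p of edgeR 0.00163 and 0.00781). The span of guf1 overlaps a row named 5S_rRNA on the other strand. The elongation factor genes tufm, tsfm, gfm1 and gfm2 had log2 changes of 0.01, 0.12, 0.01 and 0.05 and did not pass.

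Assembly factors and rRNA-modifying enzymes moved in both directions, with 3 of 23 higher and 5 lower (34.8% called, near the share of all genes). The median log2 change was -0.25, and -0.14 with library totals, where 5 were higher and 4 lower. The inner membrane protein gene mpv17l2 fell from 21.6, 15.98 and 17.15 CPM to 7.87, 8.89 and 8.79 (log2 change -1.10, SE 0.15, adjusted p of edgeR 0.000135). The GTPase gene gtpbp10 and the pseudouridine synthase gene rpusd4 fell by 0.63 and 0.75 on the log2 scale, whereas the GTPase gene mtg2 rose by 0.70. The span of rpusd4 overlaps twf2b on the other strand, so reads may be shared. Rises of ybey (0.58) and the rRNA methyltransferase gene mrm1 (0.79) had adjusted p of edgeR of 0.0275 and 0.028. With a sample left out these were up to 0.114 for ybey and 0.105 for mrm1, and 0.0887 for mrm1 with DESeq2. Without wild type a the change of ybey was 0.81.

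Genes for mitochondrial aminoacyl-tRNA synthetases, which charge the tRNAs used by this ribosome, were listed together with those for the mitochondrial amidotransferase. Of 18 genes tested in this list 6 rose and none fell, so that 33.3% were called, all of them higher. Of all genes tested 33.2% were called, 16.5% higher and 16.7% lower. The median log2 change was 0.20, and 0.308 with library totals. The synthetase genes for methionine, cysteine and proline, mars2, cars2 and pars2, rose 2.31-fold, 1.58-fold and 1.85-fold (adjusted p of edgeR 0.00165, 0.00687 and 0.00906). The log2 change of pars2 was 0.89, and 1.13 without wild type a. Their levels were low, at 1.18 ± 0.132, 1.97 ± 0.157 and 1.69 ± 0.403 FPKM in wild type (SD, n = 3). The span of mars2 overlaps med12 on the other strand and that of cars2 overlaps irs2a and si:ch211-198k9.9 on its own, so reads may be shared.

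Among 20 genes for mitochondrial DNA replication, transcription and RNA handling, 3 rose and 1 fell, beside 33.2% of all genes tested called. The median log2 change was 0.10, or 0.147 without wild type a and 0.207 with library totals. The rises were fastkd3 (0.74 on the log2 scale), MTERF1 (1.02) and the DNA polymerase gene polg (0.62), and the fall was tfb2m, a transcription initiation factor (-0.55, adjusted p of edgeR 0.00199). The spans of fastkd3, on chromosome 7 like rhpn2, and polg overlap chmp5b and fanci on the other strand, so reads may be shared. Of 10 regulators of nuclear genes for mitochondria, ppargc1b, nrf1 and gabpa fell and gabpb2b rose. These were 40% of the list, beside 33.2% of all genes tested. Without wild type a the counts were 6 lower and 2 higher (80%, beside 33.1% of all genes tested). With library totals they were 1 lower and 2 higher (30%, beside 34%). In mammals NRF1 and the GABPA factor bind promoters of many mitochondrial protein genes and PPARGC1B is a coactivator. The log2 changes were -0.64 for ppargc1b (adjusted p of edgeR 0.000786), -0.33 for nrf1 (0.0138; 0.0941 with library totals, 0.0869 and 0.0894 with limma, and 0.0675 without mutant b) and -0.38 for gabpa (0.0178; 0.0577 with library totals, 0.0589 and 0.0608 with limma). The gabpa call was also lost without wild type b, mutant a or mutant b (0.051 to 0.0665), and that of gabpb2b (0.45, 0.0303) without wild type c, mutant a or mutant b (0.0722 to 0.117) and with DESeq2 (0.0513).

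The machinery that receives the products of this ribosome included a large fall. The gene oxa1l, whose product inserts new proteins into the inner membrane and touches the ribosome at its exit, had 38.9, 41.7 and 38.7 CPM in wild type and 15.7, 16.5 and 13.7 in mutants. Replicates were tight in both groups, and the fall was 2.6-fold (log2 change -1.38, SE 0.11, adjusted p of edgeR 3e-06). Both oxa1l (19336640 to 19348213) and immp1l, described next, lie on chromosome 7, as does rhpn2 (38078407 to 38122163). In the same list of 12 genes the peptidase subunit gene immp1l rose by 1.29 on the log2 scale (SE 0.33, adjusted p of edgeR 0.00954). Its counts were low, at 12, 8 and 15 in wild type samples a to c and 39, 26 and 34 in the mutants. The size of this rise is therefore imprecise. The gene immp2l fell by 0.56 on the log2 scale (adjusted p of edgeR 0.0195) and did not pass without mutant a or b (0.0627 and 0.0756). Its span overlaps lrrn3 on the other strand, so reads may be shared. Both copies of the protease gene yme1l1 passed in opposite directions, yme1l1a at 0.45 and yme1l1b at -0.36. The yme1l1b call was lost without wild type b, wild type c, mutant a or mutant c (0.0548 to 0.131), with library totals (0.108) and with limma (0.104 and 0.105). The prohibitin gene phb2a, the remaining fall of that list, had a log2 change of -0.27. In all 2 of the 12 genes rose and 4 fell (50% called), beside 33.2% of all genes tested, 16.5% higher and 16.7% lower. With library totals the list had 2 rises and 2 falls (33.3% called). There 34% of all genes tested were called, 22.1% higher and 11.9% lower.

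Transcripts of the mitochondrial genome itself, which this ribosome translates, took 2.83%, 2.38% and 2.62% of the counts in wild type samples, and 2.45%, 2.51% and 2.17% in the mutant samples. The groups overlapped in this share. With TMM factors the summed level was 30800, 24500 and 26400 CPM in wild type samples a to c. In mutants it was 23000, 24300 and 21400 CPM, each below each wild type value. A difference in the sums was not tested. The median log2 change was -0.178, with 10 genes negative and 3 positive. That median was -0.119 without wild type a and -0.065 with library totals. Of the 13 protein-coding genes mt-nd4l rose by 0.33 on the log2 scale and mt-nd1 fell by 0.38 (adjusted p of edgeR 0.0124 and 0.023). These were 15.4% of the 13 genes, beside 33.2% of all genes tested called. The span of mt-nd4l overlaps mt-nd4, and its call was lost without mutant b (0.0564), that of mt-nd1 without mutant a or c (0.0551 and 0.0949) and with limma (0.0744 and 0.0715).

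Set beside the other large families of the same tissue, the counts were as follows. Of 77 cytosolic ribosomal protein genes none rose and 8 fell (10.4%), with a median log2 change of -0.22. Of 37 nuclear complex I genes none rose and 15 fell (40.5%), with a median of -0.29. The share called over all genes tested was 33.2%, with 16.5% higher and 16.7% lower. Without wild type a these families had 4 and 11 falls (5.19% and 29.7%), beside 33.1% of all genes tested called either way. Their medians were -0.11 and -0.16, beside -0.005 for the mitochondrial ribosomal proteins. With library totals both families had fewer falls, 4 and 9 (5.19% and 24.3%), and medians of -0.11 and -0.18. There 34% of all genes tested were called, 22.1% higher and 11.9% lower. The difference between the families was not tested.

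**Figure D5:**
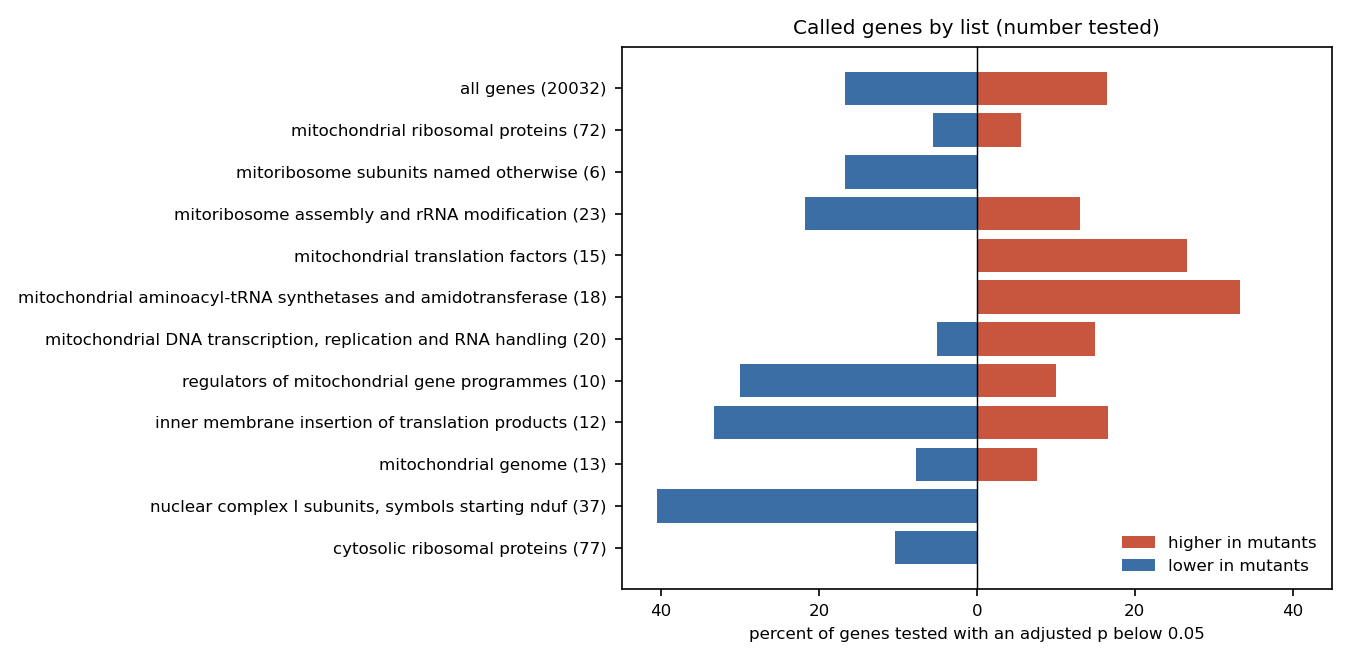
Percent of the genes tested in each list that were higher (right) or lower (left) in mutants at an adjusted p below 0.05 of edgeR, with the number tested in brackets and all genes in the top bar. The bars of the mitochondrial ribosomal proteins, 4 of 72 each way, are shorter than those of all genes at 16.5% and 16.7%.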

How the data were processed

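The authors deposited 1 table with raw read counts per gene, which are whole numbers with no normalization, and FPKM values scaled by exonic size and by each sample's total count, as recomputed from the table. The submitters' processing notes name Salmon 1.9.0, STAR 2.7.10a, fastp 0.23.2 and bcl2fastq 2.20.0.422 without roles. The sources used here give no build, annotation or strand setting, so overlapping genes may share reads. The test was the quasi-likelihood one of edgeR 4.0.16 (R 4.3.3) on the counts, with group as the only term, filterByExpr (minimum count 10, minimum total 15), TMM scaling and Benjamini-Hochberg adjustment over 20032 genes at 0.05. The SE was derived from the log2 change and the F statistic, and 95% intervals use the t distribution. Alternatives used limma 3.58.1 and DESeq2 1.42.0. The steps were tested on simulated counts with 50 genes changed by each fold, far fewer changes than were called in the data. There 54% of the 1.5-fold and 84% of the 2-fold changes were recovered, with 1 false call among 19634 unchanged genes. Changes below 1.5-fold were not simulated. A floor of 3 counts equals 0.176 to 0.201 CPM and covers counting error only. Pairs of samples within a group differed beyond sampling noise (chi-square per degree of freedom 4.196 to 14.48), so each counted as 1 sample.

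The members and lists were chosen with earlier results of these data known. Named genes are rhpn2, up to 12 called members each way, the 3 highest and 3 lowest members, lettered copies and up to 3 called genes each way per list. The complex I and cytosolic ribosomal families, phb2a, the elongation factors and other uncalled members were added after values were seen. Of the list symbols, 6 of 6 other subunits, 15 of 16 translation factors, 24 of 27 assembly genes and 18 of 19 synthetase and amidotransferase genes were found. So were 20 of 22 transcription and replication genes, 10 of 10 regulators and 10 of 11 insertion genes.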

Additional observations from a re-analysis of the deposited data

How the results depend on the processing

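The count of members that rose, 4 on TMM-scaled counts, was 9 with library totals, 11 with limma on log2(FPKM + 1) and 10 with limma on log2(FPKM + 0.1), which all scale by totals. The number that fell was 3 to 5 in these and the other settings that keep every sample. All genes tested shifted the same way. Of all called genes 49.7% were higher on TMM-scaled counts. With library totals and the limma settings in the order above the share was 65.1%, 66.0% and 65.9%. Leaving out a sample gave 2 to 6 rises and 4 to 9 falls, with 2 rises without wild type b, wild type c or mutant b and 9 falls without wild type c, and member medians of -0.164 to -0.005. In each of the 13 alternatives a smaller share of members than of all genes tested was called (8.33% to 15.3% against 24.1% to 33.1% with a sample left out). Of the 8 called members, 5 passed in each setting, and no member was called in both directions. The sign of the change differed for 11 of the 72 members with library totals and with each limma setting, for 1 with median-of-ratios scaling, and for 4 to 13 with a sample left out (9 without wild type a, 13 without wild type c). None of these members was called in either fit. Among the genes followed through each setting they were mrps18a (0.044 with library totals, 0.047 and 0.048 with limma, and -0.174 to 0.050 with a sample left out), mrps18b (0.056, 0.052 and 0.054) and mrps25 (-0.037 without wild type b, -0.009 without wild type c, and up to 0.166 with another sample left out), and mrps18c passed with limma. Counting the upper-case symbols as members, an alternative added after seeing the data, left 4 rises and 4 falls. The labels do not say whether the letters pair the samples. Correlations of deviations were -0.162 to -0.049 for equal letters and -0.003 to 0.148 for unequal ones. With 3 samples a group, centred within the group, these values cannot decide it. With the replicate block 3 members rose and 4 fell, and adjusted p was 0.0554 for mrpl9, 0.0577 for mrm1, 0.0931 for dap3 and 0.0894 for mt-nd1. Members had 91 counts or more in every sample, and 3 samples a group limit the precision.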
